A study of Mus musculus with 18 samples.

Results

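The 37 genes described here encode the machinery that copies DNA and divides the cell: the helicase that opens replication origins, the clamp and enzymes that make and place deoxynucleotides, the cyclins and their kinase, and the kinases, motors and checkpoint proteins of mitosis. They were chosen as a fixed list of mouse gene symbols, without a measured value in the rule but with earlier results of these data known. Each symbol was matched to its Ensembl gene ID. All 37 were found among the 23474 gene IDs of the expression table.

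The study measured mRNA by sequencing in epididymal white adipose tissue (eWAT, the fat pad beside the testis and epididymis) and in liver of male C57BL/6J mice aged 17 weeks (1 label of each sample spells the strain C56BL/6J). The animals had spent 12 weeks, from 5 weeks of age, in a normal diet group (ND), a high-fat group called prone (HP) or a high-fat group called resistant (HR). Each tissue has 3 libraries per group, 18 in all, and the labels do not say by what measure a mouse was called prone or resistant, nor whether a library holds 1 mouse or several. Where the 3 libraries of a group are not separate mice, the p-values measure only the spread between libraries. Values are FPKM, fragments mapped to a gene scaled for its transcript length and for the library's mapped total, so levels of different genes are compared per length. Absolute depth is unknown. Steps in the low values placed the depth of 8 liver libraries at 0.88 to 1.11 times that of liver ND library 2, and that of the 4 eWAT libraries with clear steps at 0.95 to 1.1 times that of HR library 3.

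Cells that leave the resting state switch these genes on in waves. E2F transcription factors, released from the retinoblastoma protein when cyclin-dependent kinases become active, raise the genes of DNA synthesis before S phase, and the MuvB complex with B-MYB and FOXM1 raises the mitotic genes before cell division. Mature adipocytes and hepatocytes rarely divide, so transcripts of this kind in fat or liver usually come from a small part of the cells, such as macrophages, progenitors or endothelial cells, and dividing germ cells of the testis hold them at high levels.

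Several eWAT libraries held testis transcripts. The summed level of 8 spermatid markers (such as the protamines Prm1 and Prm2) was 97100 FPKM in eWAT ND library 1 and 14600 in HR library 2, 2770 in ND library 3, 1950 in HP library 1 and 155 in ND library 2, against 8.3 to 40.7 in the other 4. Liver libraries reached at most 0.308, with 6 to 8 of the 8 markers at 0. The 16 markers of spermatogonia and spermatocytes, the dividing cells of that tissue, summed to 4220 FPKM in ND library 1, 3840 in HR library 2, 497 in ND library 3, 270 in HP library 1 and 35.5 to 52.8 in the other 5. Epididymis markers summed to 19500 FPKM in ND library 1 and 1280 in HP library 2, and to at most 13.4 in the other 7. For these reasons eWAT is given over all 9 libraries, over 7 (without ND library 1 and HR library 2) and over 5 (also without ND library 3 and HP library 1). Over 5, ND is a single library that is taken to vary like the other groups. Adipocyte markers summed to 17200 to 32100 FPKM in the 7 libraries and to 4110 and 5590 in the other two. Hepatocyte markers summed to 16400 to 47700 FPKM in liver, where the lowest value is that of HP library 3, in which albumin is listed at 0.

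Promoters are shown for 6 genes with some of the largest differences between prone and normal-diet fat, because the sequence around the start site is where the cell cycle factors named above bind. The sequences are from RefSeq on GRCm38.p6, 250 bases before to 50 bases after the start, 5′ to 3′ on the gene's strand: Ube2c at chr2:164769679-164769978 (plus), Tk1 at chr11:117825965-117826264 (minus), Mcm5 at chr8:75109259-75109558 (plus), Birc5 at chr11:117848987-117849286 (plus), Mki67 at chr7:135716330-135716629 (minus) and Mcm6 at chr1:128359656-128359955 (minus). Capitals mark letters that match, on either strand, an E2F motif (TTTCCCGC, TTTGGCGC, TTTCGCGC or TTTGCCGC), the CHR element of mitotic genes (TTTGAA) or the CCAAT box. Overlapping matches run together.
Ube2c: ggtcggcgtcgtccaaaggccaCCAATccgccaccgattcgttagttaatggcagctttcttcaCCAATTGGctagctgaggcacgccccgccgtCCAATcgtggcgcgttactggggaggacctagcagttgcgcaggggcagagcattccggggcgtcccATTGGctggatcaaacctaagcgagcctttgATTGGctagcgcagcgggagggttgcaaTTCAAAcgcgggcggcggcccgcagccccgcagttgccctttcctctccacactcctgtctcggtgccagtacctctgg
Tk1: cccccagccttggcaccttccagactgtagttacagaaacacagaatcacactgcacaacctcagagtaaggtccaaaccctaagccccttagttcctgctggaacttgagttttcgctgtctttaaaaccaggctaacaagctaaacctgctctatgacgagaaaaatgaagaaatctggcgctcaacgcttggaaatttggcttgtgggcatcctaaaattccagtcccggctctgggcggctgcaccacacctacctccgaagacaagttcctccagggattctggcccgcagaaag
Mcm5: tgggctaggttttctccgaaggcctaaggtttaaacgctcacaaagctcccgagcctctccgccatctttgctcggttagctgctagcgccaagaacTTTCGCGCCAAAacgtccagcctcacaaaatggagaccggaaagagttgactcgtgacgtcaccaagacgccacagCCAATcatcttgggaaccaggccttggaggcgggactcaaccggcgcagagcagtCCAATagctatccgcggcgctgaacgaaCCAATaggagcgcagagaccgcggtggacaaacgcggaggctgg
Birc5: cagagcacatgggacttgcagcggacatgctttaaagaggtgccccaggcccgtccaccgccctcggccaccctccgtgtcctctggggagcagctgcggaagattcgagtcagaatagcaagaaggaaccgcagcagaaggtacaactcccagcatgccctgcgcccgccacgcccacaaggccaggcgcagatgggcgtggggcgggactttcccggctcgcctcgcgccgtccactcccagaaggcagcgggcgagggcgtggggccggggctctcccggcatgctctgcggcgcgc
Mki67: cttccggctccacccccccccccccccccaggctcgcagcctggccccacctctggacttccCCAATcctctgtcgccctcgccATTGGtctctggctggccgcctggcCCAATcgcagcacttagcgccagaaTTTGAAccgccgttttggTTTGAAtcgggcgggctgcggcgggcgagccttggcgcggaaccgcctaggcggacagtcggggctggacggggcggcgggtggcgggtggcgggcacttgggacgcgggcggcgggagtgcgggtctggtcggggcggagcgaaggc
Mcm6: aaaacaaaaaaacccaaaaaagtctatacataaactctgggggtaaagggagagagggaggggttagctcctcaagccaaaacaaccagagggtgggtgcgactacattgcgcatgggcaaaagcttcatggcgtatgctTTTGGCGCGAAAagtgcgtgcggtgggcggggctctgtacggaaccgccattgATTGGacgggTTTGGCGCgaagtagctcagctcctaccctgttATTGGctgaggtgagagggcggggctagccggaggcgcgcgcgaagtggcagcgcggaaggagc
The 2 S-phase helicase genes Mcm5 and Mcm6 carried E2F letters and no CHR letters, and the mitotic genes Ube2c and Mki67 carried CHR letters and no E2F letters. The windows of Tk1 and Birc5 had no match, which says only that these letters are not in this window.

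RefSeq promoters were matched for 31 of the 37 genes; Mcm4, Foxm1, Ccna2, Aurkb, Kif20a and Tpx2 had none in the table. Over those 31 and over all 27025 promoters of the same length, E2F letters were in 5 (16.1%) against 2.32%, CHR letters in 16 (51.6%) against 18.1% and CCAAT in 26 (83.9%) against 37.9%. E2F and CHR letters were spread unevenly over the roles, and CCAAT was common in both sets below. Of the 10 promoters of the helicase and DNA synthesis genes, 4 held E2F letters (Mcm3, Mcm5, Mcm6 and Mcm7), 1 held CHR letters (Mcm2) and 8 held CCAAT. The 4 are all helicase genes, and 0 of the 5 DNA synthesis promoters held E2F letters. The promoter of E2f1 held no letters of the 3 kinds. Of the 20 promoters of cyclin, mitotic and proliferation marker genes, 15 held CHR letters, 1 held E2F letters (Cdk1) and 18 held CCAAT. The median GC content was 57.7% for the genes described here and 52.7% for all. Such matches describe letters and are not binding sites.

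Part of the 37 genes was higher in prone fat than in normal-diet fat, and how many passed the test depended on the libraries used. Of the 37 genes, 6 rose in HP against ND over all 9 eWAT libraries and none fell, and 22 rose over 7 libraries, 15 did not pass and none fell. Over 9 libraries, none of the 11 genes of mitotic kinases, the passenger complex and the spindle, the 4 of the kinetochore and the 3 of the anaphase promoting complex passed the limma test, and over 7 they had 6, 0 and 1. The helicase and DNA synthesis genes had 4 of 11 over 9 libraries and 10 of 11 over 7. The 6 that rose over 9 libraries are the thymidine kinase Tk1 (log2 difference 2.11, SE 0.31), the S-phase and G2 cyclin Ccna2 (1.98, SE 0.34), the helicase subunits Mcm6 (1.84, SE 0.27) and Mcm3 (1.58, SE 0.29), the proliferation marker Mki67 (1.81, SE 0.35) and the replication clamp Pcna (1.61, SE 0.3). Calls are limma tests on log2(FPKM + 1), 2-sided, at an adjusted p under 0.05 (Benjamini-Hochberg over all genes tested in that comparison), and every log2 difference is on this scale, which understates the change of low genes. Among all genes tested, 2.07% were called higher and 0.0416% lower over 9 libraries, and 15.7% higher and 7.4% lower over 7. The median difference of the 37 was 1.07 over 9 libraries, against 0.09 for all genes, and 1.14 over 7 libraries, against 0.01. The tissue was sequenced in bulk, so more cells of a dividing type and more RNA per cell cannot be told apart.

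**Figure D1:**
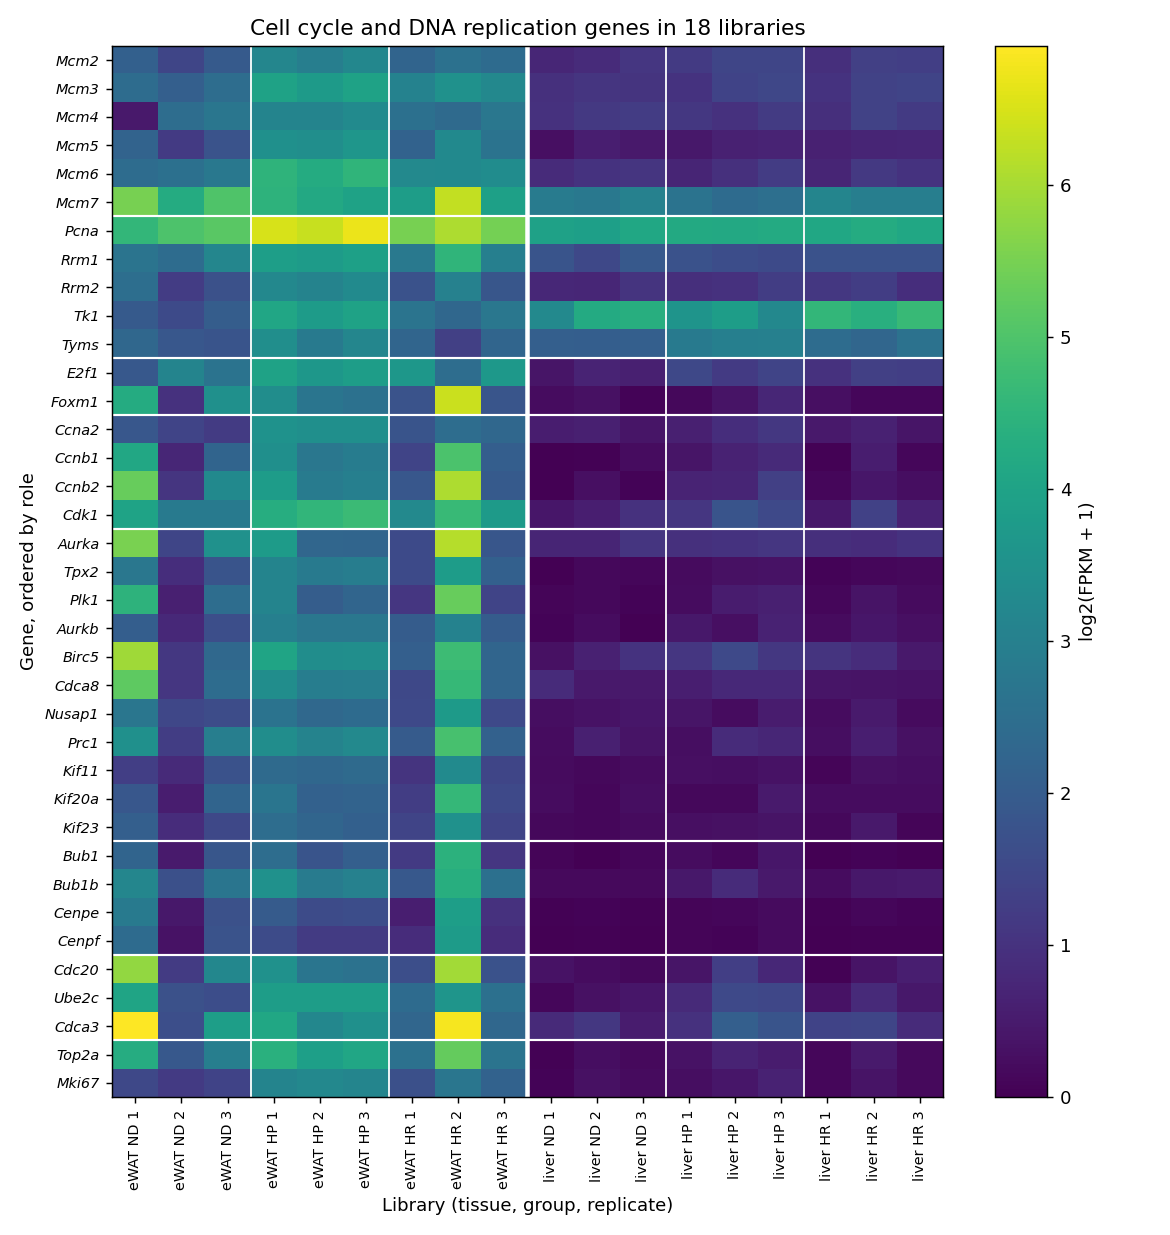
Level of each of the 37 genes (rows, ordered by role) in each of the 18 libraries (columns, by tissue, group and replicate), as log2(FPKM + 1) by colour. The 3 prone fat libraries are bright across the replication genes at the top, in liver Pcna, Tk1, Mcm7 and Tyms are the brightest, and fat ND library 1 and HR library 2 are bright in the mitotic genes, with Cdca3 highest at 119 and 112 FPKM.

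The helicase subunits Mcm2 to Mcm7 form the ring that unwinds DNA at replication forks. Mcm6 was at 4.48, 4.83 and 5.86 FPKM in ND libraries 1 to 3, at 21.7, 18.2 and 22.2 in HP, and at 8.54, 8.74 and 9.29 in HR. The groups did not overlap, with HP highest and ND lowest, also with the libraries that hold testis transcripts. Mcm5 was at 3.57, 1.28 and 2.43 FPKM in ND, 10.2, 9.59 and 11.3 in HP and 3.47, 8.79 and 5.24 in HR, again with HP above all others. Mcm2 stood at 3.33, 1.7 and 2.85 FPKM in ND, 8.07, 6.83 and 8.21 in HP and 3.69, 5.03 and 4.32 in HR. Its groups did not overlap either. Mcm3 ran from 3.26 to 4.56 FPKM in ND, 12.5 to 15 in HP and 7.3 to 10.2 in HR. Over 7 libraries 5 of the 6 subunits rose in HP against ND, by 2.02 (Mcm5), 1.77 (Mcm6), 1.63 (Mcm3), 1.43 (Mcm2) and 0.6 (Mcm4), with SE from 0.15 to 0.24 and limma adjusted p from 0.000507 to 0.0401. Mcm4 was at 0.388 FPKM in ND library 1, its lowest value in any library of the study, and at 4.5 and 5.52 in the other ND libraries.

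Mcm7 did not follow the other subunits of its ring. It was at 44.4, 18 and 31.4 FPKM in ND, 21.1, 17.1 and 14.7 in HP and 13.5, 76.8 and 14.2 in HR, so the 2 highest libraries are those set aside for their testis transcripts. Its HP minus ND difference was -0.43 (SE 0.25) over 7 libraries and -0.18 (SE 0.17) over 5, and neither passed the test (limma adjusted p 0.277 and 0.49). Mcm7 overlaps Ap4m1 and Cops6 on the opposite strand, and no source used here states whether the counting used strand; without it, reads in the overlap cannot be assigned to either gene.

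DNA synthesis and nucleotide supply had 5 of 5 genes higher in HP over 7 libraries. Pcna, the clamp that holds the polymerase on DNA, had the highest level of the 37 genes in 7 of the 9 eWAT libraries: 22.8, 30.7 and 34.1 FPKM in ND, 88.5, 79.2 and 104 in HP, and 44.1, 66.3 and 43.4 in HR. Every HP library was above every HR library, and every HR library above every ND library. Tk1, which recovers thymidine for DNA synthesis, was at 2.89, 1.91 and 3.13 FPKM in ND, 16, 13 and 14.9 in HP and 5.34, 3.91 and 5.65 in HR, in the same order with no overlap. Rrm2, the regulated subunit of ribonucleotide reductase, was at 4.64, 1.34 and 2.31 FPKM in ND, 8.35, 7.46 and 8.94 in HP and 2.32, 7.24 and 2.57 in HR. Here the HR and ND libraries overlapped, and ND library 1 and HR library 2 came closest to HP. Over 7 libraries the HP minus ND differences were 2.17 for Tk1 (SE 0.2), 1.73 for Rrm2 (SE 0.2), 1.45 for Pcna (SE 0.14), 1.31 for the thymidylate synthase Tyms (SE 0.2) and 1.05 for the large reductase subunit Rrm1 (SE 0.23). Tk1 overlaps Afmid on the opposite strand, and Afmid rose with it in fat by 1.16 (SE 0.24, limma adjusted p 0.0155); Afmid and the other overlapping genes given below were chosen after their values were seen.

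Of the 2 transcription factors, E2f1 passed in HP against ND over 7 libraries and Foxm1 did not. E2f1, which drives S-phase genes, was at 2.78, 7.65 and 5.16 FPKM in ND, 14.7, 11.7 and 13.3 in HP and 11.7, 4.52 and 12 in HR. Without ND library 1 and HR library 2, HP and HR overlapped and both stood above ND; E2f1 rose by 0.96 in HP against ND (SE 0.19, limma adjusted p 0.013). Foxm1, which drives mitotic genes, was at 18.2, 0.97 and 10.2 FPKM in ND, 9.49, 5.41 and 4.97 in HP and 2.4, 81.7 and 2.56 in HR. All its HP libraries were above both remaining HR libraries, with a difference of 1.08 over 7 libraries that did not pass. The 2 remaining ND libraries lay far apart, and HP minus ND over 7 libraries did not pass (0.65, SE 0.68, limma adjusted p 0.53). Over 5 libraries Foxm1 was higher in HP than in ND by 1.65.

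Among the cyclins and their kinase, Ccna2 and Cdk1 rose over 7 libraries and Ccnb1 and Ccnb2 did not pass. Ccna2 was at 2.68, 1.67 and 1.29 FPKM in ND, 10.6, 9.87 and 9.9 in HP and 2.47, 4.57 and 3.96 in HR and every HP library was above every other library. The difference was 2.17 (SE 0.2, limma adjusted p 0.000694). Cdk1, the kinase that starts mitosis, was at 15.2, 6.15 and 6.03 FPKM in ND, 18.8, 22.2 and 25 in HP and 8.56, 24.1 and 12.5 in HR, with a difference of 1.69 over 7 libraries (SE 0.2). Ccnb1, the mitotic cyclin that activates it, was at 16.6, 0.688 and 3.69 FPKM in ND, 9.78, 5.64 and 6.51 in HP and 1.68, 29.8 and 3.19 in HR. HP was above ND without ND library 1, but the 2 remaining ND libraries lay far apart (difference 1.53, SE 0.47, limma adjusted p 0.0572); over 5 libraries the difference was 2.06 (SE 0.31, adjusted p 0.00488).

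**Figure D2:**
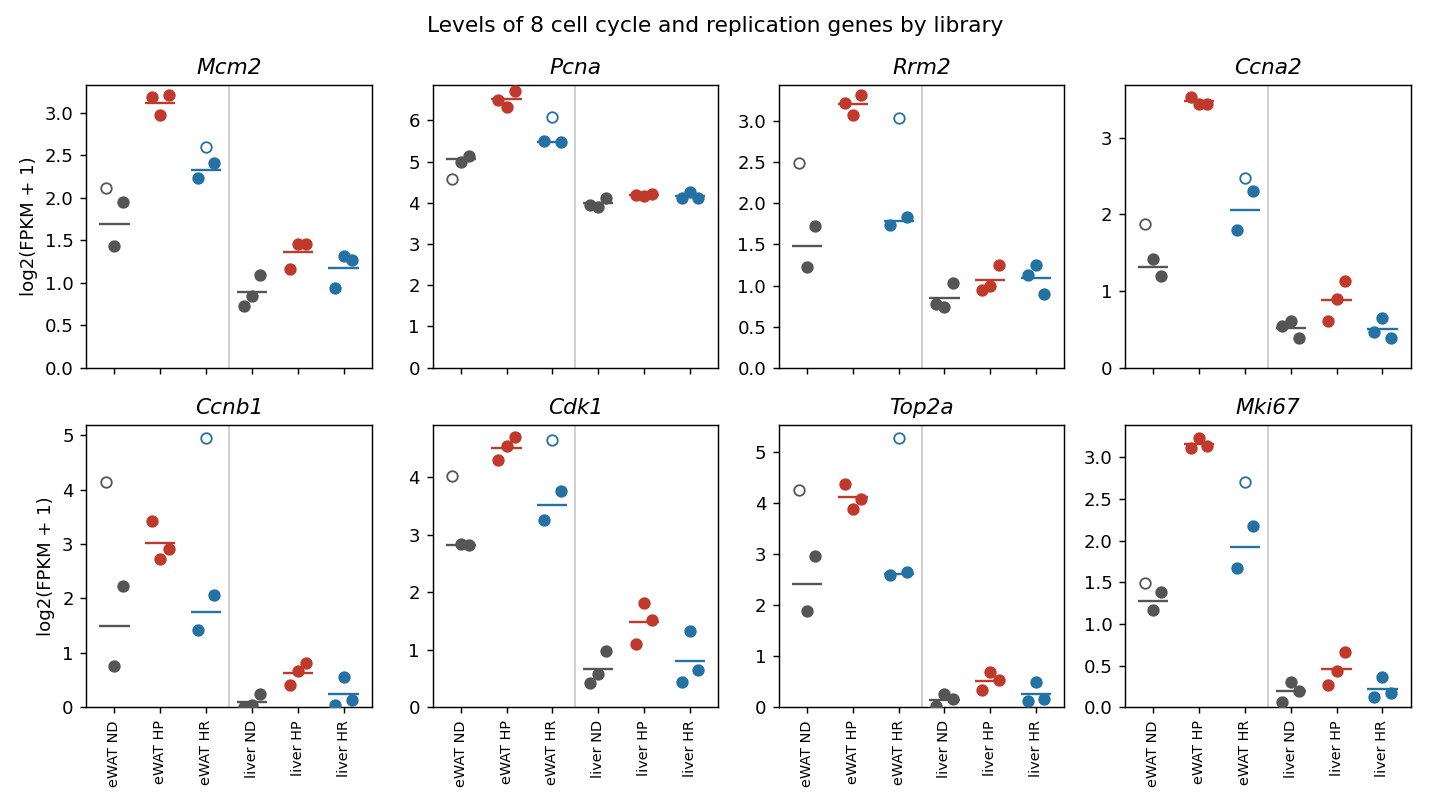
Level of 8 genes as log2(FPKM + 1) in each library, by tissue and group (grey ND, red HP, blue HR); each panel has its own scale from 0. Open circles are fat ND library 1 and HR library 2, and bars are group means without them. For all 8 genes the 3 prone fat libraries lie above the filled ND and HR points, and liver lies below prone fat.

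Of the 11 genes of mitotic kinases, the passenger complex and the spindle, 6 rose in HP over 7 libraries. They are Birc5 (survivin, 1.88, SE 0.38) and Aurkb (1.59, SE 0.28), both of the chromosomal passenger complex, Tpx2, an activator of Aurora A (1.6, SE 0.32), the spindle motors Kif23 (1.09, SE 0.25) and Kif11 (1.07, SE 0.3), and Nusap1, a microtubule binding protein (0.92, SE 0.18). Birc5 was at 59.4, 1.18 and 4.04 FPKM in ND, 15.4, 9.49 and 9.57 in HP and 3.3, 25.8 and 3.79 in HR. The highest libraries were again ND library 1 and HR library 2. Tpx2 was at 5.74, 0.879 and 2.47 FPKM in ND, 7.7, 6.01 and 6.57 in HP and 1.92, 13.2 and 3.37 in HR. Aurka, the kinase that Tpx2 activates, went to 44.7 FPKM in ND library 1 and 69.6 in HR library 2, 10.3 in ND library 3 and 12.8 in HP library 1, against 1.7 to 3.82 in the other 5; its difference over 7 libraries was 0.3 (SE 0.7). The 5 genes of this role that did not pass had differences from 0.3 to 1.32.

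None of the 4 kinetochore and checkpoint genes (Bub1, Bub1b, Cenpe and Cenpf) passed over 7 libraries; their differences ran from 0.29 to 0.95. Cenpf, a kinetochore protein, was the lowest of the 37 genes in each HP library, at 2, 1.3 and 1.32 FPKM. Of the 3 genes of the anaphase promoting complex and mitotic exit, Ube2c, the enzyme that loads ubiquitin onto that complex's substrates, had the largest difference of all 37 genes over 7 libraries, 2.18 (SE 0.14, limma adjusted p 0.000178). Ube2c was at 15.3, 2.26 and 2.1 FPKM in ND, 13.3, 13.4 and 13.4 in HP and 4.38, 11.2 and 4.82 in HR: the HP libraries agree closely, and ND library 1 is above them. Cdc20, which activates the complex, and Cdca3 did not pass. Cdca3 was at 119, 2.18 and 13.6 FPKM in ND, 16.4, 8.15 and 10.2 in HP and 3.85, 112 and 3.94 in HR.

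Both genes of chromosome structure and proliferation rose over 7 libraries. Mki67, whose protein Ki-67 coats mitotic chromosomes and marks cycling cells, was at 1.81, 1.25 and 1.6 FPKM in ND, 7.64, 8.41 and 7.78 in HP and 2.2, 5.51 and 3.52 in HR. Its HP libraries were above all HR libraries and its HR libraries above all ND libraries, with or without those that hold testis transcripts (difference 1.88 over 7, SE 0.21). Top2a, the topoisomerase that untangles sister chromosomes, was at 18.3, 2.72 and 6.77 FPKM in ND, 19.8, 13.8 and 16 in HP and 5.01, 37.8 and 5.26 in HR. It rose by 1.69 over 7 libraries (SE 0.32, limma adjusted p 0.011) and did not pass over 9 (1.08, SE 0.83).

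For 26 of the 37 genes, all HP libraries were above the 2 remaining ND libraries, and for 0 all were below; of all genes tested, 29.5% were above and 20.1% below. Over 5 libraries, 35 of the 37 genes could be tested and 34 rose, every one but Mcm7, where 19.4% of all genes tested rose and 7.87% fell. The counts depended on single libraries. Leaving out each of the 7 in turn gave 15 genes higher (without HP library 3) to 35 (without ND library 3). Over 9 libraries the count was 7 without ND library 1 or HR library 2 and 0 without any one of ND libraries 2 and 3, the HP libraries or HR library 1.

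**Figure D3:**
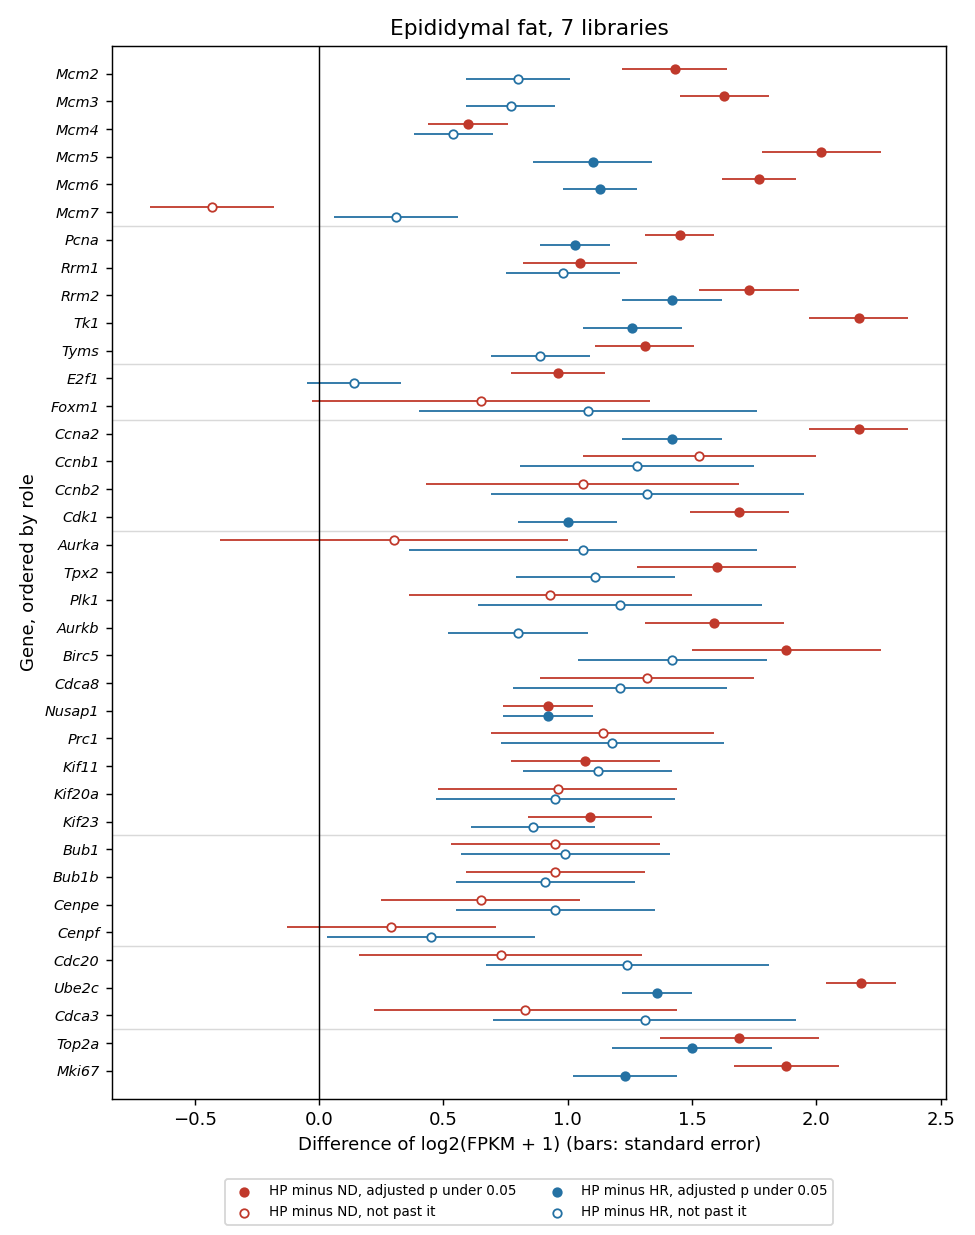
Difference of log2(FPKM + 1) over 7 fat libraries for each of the 37 genes, HP minus ND in red and HP minus HR in blue, with the standard error as bars and filled points past an adjusted p of 0.05. All points lie right of 0 but Mcm7 in HP minus ND, and the widest bars belong to Aurka, Foxm1, Ccnb2 and Cdca3.

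The libraries with testis transcripts did not raise the 37 genes evenly. HR library 2 stood over 5 times above the mean of HR libraries 1 and 3 for 19 genes and below that mean for 5, with a median of 5.55 and a range from 0.382 (E2f1) to 33 (Foxm1). The genes with the highest ratios were mitotic (Foxm1, Aurka, Cdca3, Plk1, Cdc20 and Ccnb2), and those with ratios below 1 were E2f1, Tyms, Tk1, Mcm4 and Mcm6. HP library 1, with fewer testis transcripts, was over 1.5 times the mean of HP libraries 2 and 3 for 12 genes, at a median of 1.24 and at most 3.39 (Aurka). HP libraries 2 and 3 differed at most 1.34 times (Bub1). Split by these values, the 19 genes over 5 times higher in HR library 2 included 5 of those called over 7 libraries, and 16 of 17 tested over 5 libraries; of the other 18, 17 were called over 7 and 18 over 5. This split was made after the values were seen and is a description. In the first set ND library 3 was a median of 6.03 times ND library 2, and in the other 1.34 times. The mean of HP libraries 2 and 3 was over 1.5 times ND library 2 for 36 of 37 genes, at a median of 5.35 times and a range from 0.881 (Mcm7) to 8.83 (Ccnb1); 3 libraries are behind these ratios and they carry no test.

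**Figure D4:**
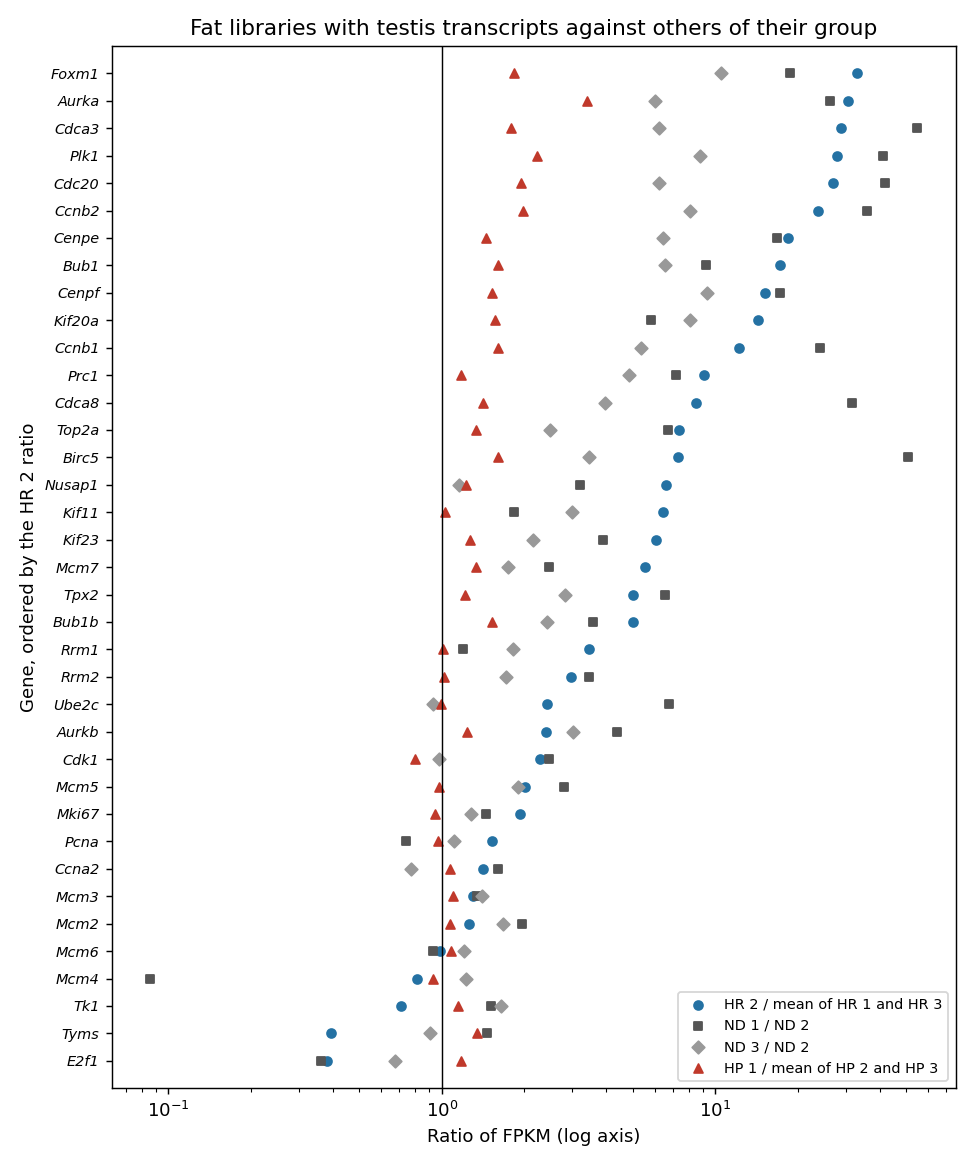
Ratio of FPKM, on a log axis, of the fat libraries with more testis transcripts to others of their group, for the 37 genes ordered by HR library 2 over the mean of HR libraries 1 and 3. Mitotic genes at the top reach 33 in HR library 2 and 54.7 in ND library 1 (Cdca3), the 5 genes below 1 in HR library 2 are E2f1, Tyms, Tk1, Mcm4 and Mcm6, and the roles mix between (Mcm7 at 5.55 and Rrm1 at 3.45 above Ccna2 at 1.42 and Mki67 at 1.93). HP library 1 stays between 0.795 and 3.39.

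Some of the genes were also higher in prone than in resistant fat. Over 7 libraries 11 of the 37 genes rose in HP against HR and none fell, where 4.21% of all genes tested rose; all 37 differences were positive, with a median of 1.08 against 0.04 for all genes. The 8 largest were Top2a (1.5, SE 0.32), Rrm2 (1.42, SE 0.2), Ccna2 (1.42, SE 0.2), Ube2c (1.36, SE 0.14), Tk1 (1.26, SE 0.2), Mki67 (1.23, SE 0.21), Mcm6 (1.13, SE 0.15) and Mcm5 (1.1, SE 0.24), with limma adjusted p from 0.0177 to 0.0483. Replication and mitotic genes were both among them. All 3 HP libraries were above both remaining HR libraries for 36 genes, every one but E2f1 (0.14, SE 0.19), where 28.2% of all genes tested did not overlap in this direction. The mean of HP libraries 2 and 3 was over 1.5 times that of HR libraries 1 and 3 for 35 genes, at a median of 2.35 times and at most 3.35 times (Rrm2). Over 9 libraries the limma test called 0 of the 37 genes, with 6 at an unadjusted p under 0.05, and 0% of all genes; over 5 libraries it called 28 higher, against 7.21% of all genes. The count over 7 libraries fell to 0 without any one of HP libraries 1 and 3 or HR libraries 1 and 3, and reached 30 without ND library 2 or 3.

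In resistant fat few of these genes passed the test against normal-diet fat. Over 7 libraries 1 gene, Ube2c, rose in HR against ND (0.82, SE 0.15, limma adjusted p 0.0364), where 3.85% of all genes tested rose, and the median difference was 0.19 against 0.02 for all genes. The differences of Mcm5 (0.92, SE 0.27), Tk1 (0.9, SE 0.21) and Mcm3 (0.86, SE 0.19) were larger, with a larger SE, and did not pass. Both remaining HR libraries were above both remaining ND libraries for 14 genes and below them for 1, Mcm7, where 24.9% and 19.8% of all genes tested did so. Over 9 libraries the limma test called 0 genes, of the 37 and of all (0%), with 6 of the 37 at an unadjusted p under 0.05; over 5 libraries it called 8 of 35, against 10.2% of all genes. Over those 5 libraries, where ND is a single library, 34 of the 35 differences were positive, with a median of 0.67. Leaving out single libraries moved the count over 7 from 0, without any HP library or any remaining HR library, to 7 without ND library 3. The 3 comparisons in fat share their libraries in pairs and are not independent.

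Markers of other cell types moved with these genes in fat. The 14 macrophage markers summed to 5790 to 8210 FPKM in the HP libraries, 2430 and 2880 in HR libraries 1 and 3, and 651 and 531 in ND libraries 2 and 3; ND library 1 and HR library 2 had 91.1 and 617. None of the 14 was at 0 in any of these libraries, and the surface marker Adgre1 went from 16 and 14.3 FPKM in ND libraries 2 and 3 to 195 to 259 in HP. The 7 fibroblast and preadipocyte markers summed to 1320 to 1560 FPKM in HP, 744 and 973 in HR libraries 1 and 3, and 573 and 592 in ND libraries 2 and 3, with none at 0. The 6 endothelial markers did not order the groups this way, at 206 to 237 FPKM in HP, 310 and 334 in those HR libraries and 212 and 237 in those ND libraries. The 9 T, B and NK cell markers summed to 3.44 to 4.68 FPKM in HP, 3.17 to 6.46 in HR and 2.94 to 28.2 in ND, so the groups overlapped, with the highest value in ND library 1, and the B cell marker Ms4a1 was at 0 in every library. The 7 erythroid and megakaryocyte markers summed to 75.3 to 94.4 FPKM in HP, 32.2 to 55.7 in HR and 45.5 to 66.5 in ND. The part of these cells in the differences was not tested.

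In liver most of the 37 genes were near the floor. Between 19 and 32 of them were under 1 FPKM in each liver library, and 15 reached 1 FPKM in the 3 libraries that the test needs; the other 22 were not tested, among them Mki67 (0.0482 to 0.588 FPKM over the 9 libraries), Top2a (0.0238 to 0.618), Ccna2 (0.306 to 1.19) and Ccnb1 (0 to 0.758). Pcna was again among the highest, at 14.5, 14 and 16.4 FPKM in ND, 17.3, 17 and 17.7 in HP and 16.2, 18 and 16.5 in HR. Rrm2 was at 0.715, 0.672 and 1.05 FPKM in ND, 0.923, 0.993 and 1.38 in HP and 1.19, 1.37 and 0.864 in HR, with overlapping groups. For Mcm2 the ND libraries were at 0.658, 0.787 and 1.13 FPKM, HP at 1.24, 1.74 and 1.74 and HR at 0.91, 1.5 and 1.41.

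Of the 15 genes tested in liver, 5 rose in HP against ND and 1 fell, where 17.6% of all genes tested rose and 14.1% fell. Those that rose were Tyms (0.87, SE 0.12, limma adjusted p 0.000958), Cdk1 (0.82, SE 0.25), the mitotic entry factor Cdca3 (0.8, SE 0.27), E2f1 (0.79, SE 0.15) and Mcm2 (0.47, SE 0.16), and Mcm7 fell by 0.37 (SE 0.12). Tyms was at 3.27, 3.2 and 3.25 FPKM in ND, 6.18, 6.96 and 7.08 in HP and 4.43, 3.87 and 5.07 in HR, so the groups did not overlap and HP was highest. Cdk1 was at 0.341, 0.497 and 0.978 FPKM in ND, 1.15, 2.5 and 1.87 in HP and 0.365, 1.51 and 0.569 in HR. E2f1 went from 0.316 to 0.606 FPKM in ND to 1.24 to 1.8 in HP and 0.993 to 1.47 in HR. Mcm7 was at 6.31, 5.79 and 7.21 FPKM in ND, 5.2, 4.29 and 4.79 in HP and 7.81, 6.69 and 6.7 in HR. Its overlapping neighbours Cops6 and Ap4m1 fell as well, by 0.41 (SE 0.12, adjusted p 0.0226) and 0.61 (SE 0.16, adjusted p 0.0154). Of the 15 tested genes, 6 had all HP libraries above all ND libraries and 1 had them below. Of all genes tested, 23.6% were above and 21.3% below. Counting also the members too low to be tested, 21 had all HP libraries above all ND libraries and 1 had them below. The median level of the members was 0.494, 0.819 and 0.758 FPKM in the HP libraries and 0.228, 0.392 and 0.334 in the ND libraries. These levels are near the floor, and the shares of all genes given here cover tested genes only. The count of called genes fell from 6 to 2 without HP library 2 or HP library 3, the libraries with skeletal muscle transcripts (Ckm at 21 and 4.09 FPKM, listed at 0 in the other 7), and was 3 when the libraries were rescaled to the same sum of FPKM.

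In liver HR against ND, E2f1 alone rose (0.63, SE 0.15, limma adjusted p 0.0466), where 2.28% of all genes tested did; the count was 0 without any 1 of the other 8 libraries and 1 without HP library 2. In HP against HR, Tyms rose by 0.51 (SE 0.12) and Tk1 and Mcm7 fell by 0.98 (SE 0.26) and 0.49 (SE 0.12), where 7.2% of all genes tested rose and 3.94% fell. This count of 3 was 0 without HP library 2, HP library 3 or HR library 2. Tk1 is among the most abundant of the 37 genes in liver, at 8.56, 17.6 and 19.2 FPKM in ND, 10.9, 13.3 and 8.4 in HP and 22.7, 19.5 and 24.4 in HR. Afmid, the kynurenine formamidase gene that overlaps it, was at 44.3 to 60.7 FPKM in HP and 85.2 to 102 in HR and fell alongside by 0.78 (SE 0.2, adjusted p 0.0324), and reads in the overlap cannot be assigned to either gene without the strand.

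Markers of other cell types moved in liver as well. The 7 fibroblast and preadipocyte markers summed to 37.8 to 62.9 FPKM in HP, 24.6 to 28.9 in HR and 28.2 to 33.6 in ND. So HP stood above both other groups. The collagen genes Col3a1 and Col1a1 rose in HP against ND by 1.74 (SE 0.28) and 1.5 (SE 0.36), and Dpt by 0.9 (SE 0.26). Pdgfra (-0.12), Dpp4 (0.01) and Lum (0.13) did not pass, and Pi16 was too low to be tested. The 8 adipocyte markers summed to 186 to 234 FPKM in HP, 128 to 132 in HR and 116 to 148 in ND, with 0 to 3 of the 8 at 0 in a library. Of these, Fabp4, Cidec and Pparg were called higher in HP against ND. Lipe (0.29) and Pnpla2 (-0.27) did not pass, and Adipoq, Plin1 and Lep were too low to be tested. Macrophage markers overlapped between the groups, at 123 to 232 FPKM in HP, 80.3 to 147 in HR and 102 to 126 in ND, with none at 0. Mmp12 and Spp1 were called higher in HP against ND, and the other macrophage markers tested did not pass. Of those, Adgre1 (-0.54), Mpeg1 (-0.31) and Csf1r (-0.21) were lower in HP. Cd68 (0.87), Cd14 (0.52), Cd9 (0.45), Ctss (0.29) and Lyz2 (0.27) were higher. The 6 endothelial markers summed to 12.4 to 17.5 FPKM in HP, 11.1 to 17 in HR and 18.1 to 20.8 in ND, with ND highest. They did not move together: Vwf rose in HP against ND by 0.91 (SE 0.2). Kdr and Tek fell by 0.84 (SE 0.17) and 0.44 (SE 0.15), and the rest did not pass. Of the 8 hepatocyte markers, the urea cycle enzyme Cps1, the tyrosine aminotransferase Tat and the transcription factor Hnf4a fell in HP against ND by 1.94 (SE 0.22), 1.21 (SE 0.23) and 0.44 (SE 0.14), and the thyroid hormone carrier Ttr rose by 1.05 (SE 0.16). Apoa1 (0.43), Ahsg (0.04) and Serpina1a (0.01) did not pass, nor did albumin (-4.79, SE 2.94), which is listed at 0 in HP library 3. The part of these cells in the liver differences was not tested.

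**Figure D5:**
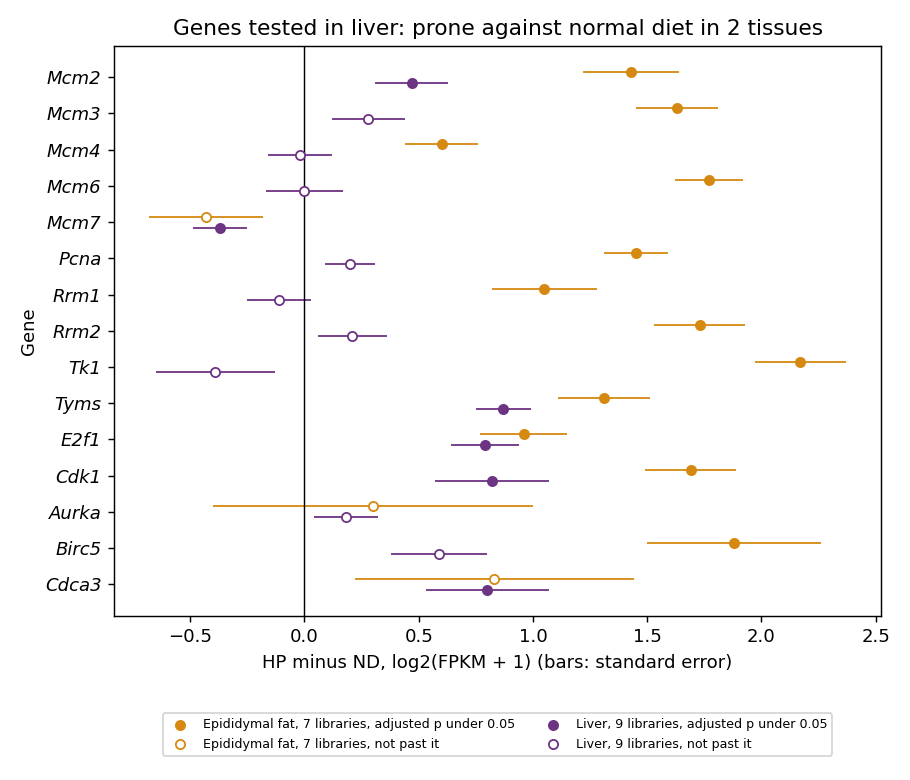
HP minus ND difference of log2(FPKM + 1) for the 15 genes tested in liver, over 7 fat libraries (orange) and 9 liver libraries (purple), with the standard error as bars and filled points past an adjusted p of 0.05. The fat differences of Tk1, Mcm6, Rrm2 and Mcm3 lie far to the right of those in liver, while Mcm7, E2f1, Aurka and Cdca3 lie close together. Over 5 fat libraries, with a single ND library, Aurka and Cdca3 differed by 0.82 and 1.67, against 0.18 and 0.8 in liver.

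The difference between prone and normal-diet mice was larger in fat than in liver for many replication and some spindle genes. The labels do not say whether the liver and fat libraries of the same group and number come from the same mouse, and they were taken as independent. In a fit over 16 libraries (9 of liver and 7 of fat), the HP minus ND difference was larger in fat than in liver for 19 of the 37 genes and smaller for 0, where 16.7% of all genes tested were larger and 11.2% smaller. The 8 largest differences between the tissues were those of Tk1 (2.55, SE 0.37), Mcm5 (1.88, SE 0.25), Ccna2 (1.8, SE 0.24), Mcm6 (1.78, SE 0.23), Mki67 (1.62, SE 0.23), Rrm2 (1.52, SE 0.23), Tpx2 (1.41, SE 0.3) and Mcm3 (1.35, SE 0.23), with limma adjusted p from 0.000103 to 0.0038. Afmid, which overlaps Tk1 on the opposite strand, also had the larger difference in fat, by 1.46 (SE 0.32, limma adjusted p 0.00428). Among the 19 were 5 of 6 helicase subunits, 4 of 5 DNA synthesis genes and 6 of 11 spindle genes, and no kinetochore gene. E2f1, higher in HP in both tissues, did not differ past the threshold between them (0.16, SE 0.23), nor did Tyms (0.44, SE 0.2) or Mcm7 (-0.06, SE 0.27). The count was 17 to 30 when single libraries were left out, 30 without fat ND library 3, and 7 with all 18 libraries. Most of these genes were under 1 FPKM in liver, where this scale shrinks differences, and with a pseudocount of 0.1 in place of 1 the count was 8. Of the genes named here, Mki67 (1.43, SE 0.57, limma adjusted p 0.0883) and Tpx2 (1.17, SE 0.56, adjusted p 0.15) then did not pass.

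For HP against HR, 11 genes had the larger difference in fat and 0 the smaller, where 5.72% and 4.42% of all genes tested did. Tk1 (2.24, SE 0.37), Rrm2 (1.45, SE 0.23), Top2a (1.25, SE 0.34), Mcm5 (1.22, SE 0.25), Mcm6 (1.11, SE 0.23), Rrm1 (1.09, SE 0.25), Ccna2 (1.04, SE 0.24) and Kif11 (1.04, SE 0.28) were the 8 largest. The value for Tk1 joins a rise in fat to a fall in liver, where Afmid fell too. Afmid itself had the larger difference in fat, by 1.25 (SE 0.32, limma adjusted p 0.0286). This count ran from 3 (without fat HR library 1) to 21 (without fat ND library 2 or 3) and was 1 with all 18 libraries. With a pseudocount of 0.1 it was 4, and Top2a, Mcm5, Mcm6, Ccna2 and Kif11 did not pass (limma adjusted p from 0.0579 for Mcm5 to 0.508 for Top2a). For HR against ND the limma test called 0 of the 37 genes different between the tissues, with 6 at an unadjusted p under 0.05 and 5.59% of all genes called larger in fat; without fat ND library 2 it called 9.

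Levels in the prone group were higher in fat than in liver for 35 of the 37 genes, where 64.1% of all genes tested were higher in fat and 16.5% lower. The median difference of the 37 was 2.31, against 0.93 for all genes. Top2a differed most (3.6, SE 0.23), followed by Mcm6 (3.47, SE 0.15), Cdk1 (3.03, SE 0.24), Mcm5 (2.92, SE 0.17), Mki67 (2.7, SE 0.15), Tpx2 (2.67, SE 0.2), Prc1, a microtubule crosslinker of the central spindle (2.63, SE 0.32), and Mcm3 (2.62, SE 0.16). Tk1 (0.41, SE 0.25) and Tyms (0.2, SE 0.13), both of thymidine nucleotide supply, did not pass. Tyms was at 9.6, 6.25 and 8.02 FPKM in prone fat and 6.18, 6.96 and 7.08 in prone liver.

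In addition, 3 lists of cell cycle genes were followed in the same fits. The list of 25 G1 cyclins, kinases, pocket proteins, inhibitors and E2F factors was tested for 24 genes over 7 fat libraries, and 6 rose in HP against ND and 0 fell, at a median of 0.35, where 15.7% of all genes tested rose. The 4 largest were the CDK inhibitor Cdkn1a (p21, 1.39, SE 0.18), Ccne1 (0.78, SE 0.22), E2f2 (0.76, SE 0.21) and the pocket protein gene Rbl1 (0.71, SE 0.17). Cdkn1a restrains the cycle, and it stood with the genes that drive it: 14.1, 18.1 and 24.1 FPKM in ND, 59.4, 46.9 and 64.6 in HP and 40.8, 11.2 and 44.3 in HR. It also rose in HR against ND (0.99, SE 0.2, limma adjusted p 0.0472), the only gene of this list that did. Of the other inhibitors, Cdkn2b rose by 0.63 (SE 0.15) in HP against ND, Cdkn1b, Cdkn1c, Cdkn2c and Cdkn2d did not pass, with differences of -0.01, 0.27, -0.05 and 0.09, and Cdkn2a was too low to be tested. The D cyclins did not pass: Ccnd1 differed by 0.86 (SE 0.37), Ccnd2 by 0.52 (SE 0.21) and Ccnd3 by -0.44 (SE 0.17).

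Of 28 origin and fork factors in the table (Cdt1 and Gins2 of the 30 listed were not matched), 27 were tested over 7 fat libraries; 10 rose in HP against ND and 0 fell, at a median of 0.57, beside the same 15.7% of all genes. The histone chaperone genes Asf1b (1.64, SE 0.35) and Chaf1b (1.25, SE 0.35), the clamp loader subunit Rfc5 (1.24, SE 0.13) and the flap endonuclease Fen1 (1.22, SE 0.3) led. Of 47 G2 and M factors, 45 were tested and 18 rose and 0 fell, at a median of 0.78, led by Dlgap5 (2.08, SE 0.28), the centromere histone Cenpa (1.81, SE 0.16), Stmn1 (1.79, SE 0.3) and Spc25 (1.78, SE 0.2). In HP against HR over 7 libraries the 3 lists had 0, 1 and 5 genes higher of 24, 27 and 45 tested and 0 lower, where 4.21% of all genes rose; the first 2 counts are no higher than that share. In HR against ND they had 1, 0 and 0, where 3.85% of all genes rose. Over all 9 libraries, HP against ND called 0, 0 and 1 higher, where 2.07% of all genes rose.

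In liver HP against ND the same lists had 4 higher and 2 lower of 17 G1 genes, 6 and 0 of 17 origin and fork factors, and 7 and 0 of 12 G2 and M factors tested, led by Cdkn1a (1.11, SE 0.35), Dut, which removes dUTP (0.96, SE 0.13), and Stmn1 (1.18, SE 0.16). Of all genes tested there, 17.6% rose and 14.1% fell, so the G1 list was near the share of all genes. Cdkn1c rose by 0.78 (SE 0.15), Ccnd1 by 0.75 (SE 0.19) and Cdkn2c by 0.57 (SE 0.2), and the repressor E2f8 fell by 1.34 (SE 0.33). Ccnd1 was at 3.29, 3.16 and 4.89 FPKM in liver ND, 6.39, 6.77 and 7.74 in HP and 6.75, 11.7 and 9.59 in HR. It was the only gene of the 3 lists called in liver HR against ND, where it rose by 1.1 (SE 0.19, limma adjusted p 0.0136). In liver HP against HR, where 7.2% of all genes tested rose and 3.94% fell, the lists had 3, 1 and 3 genes higher, Cdkn1a (1.44, SE 0.35), Dut (0.62, SE 0.13) and Pttg1 (0.73, SE 0.14) among them, and 0, 0 and 1 lower, the mitotic inhibitor kinase Wee1, which fell by 0.79 (SE 0.21).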

How the data were processed

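The authors' deposited table holds FPKM per gene for 18 libraries, made with CASAVA 1.8.2, STAR 2.4.0 and Cufflinks 2.1.1, per the submitters' processing notes; no label names a genome build or a strand setting. Depth is unknown, so no counting interval was computed, and an exact 0 can be a failed estimate. Gene symbols were taken from a table of Ensembl IDs, which named 22671 IDs and left 803 unnamed; unnamed IDs stayed in the tests. The members and all lists were chosen with earlier results of these data known.

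FPKM were put on the log2(FPKM + 1) scale, a gene entered a fit if 3 or more of its libraries reached 1 FPKM, and group means were compared with limma 3.58.1 (R 4.3.3, eBayes with trend, 2-sided) with Benjamini-Hochberg adjustment over all genes tested, at 0.05. The 3 groups of a tissue shared 1 spread. Data were simulated with the spread of each gene and independent normal noise, and only genes with a mean log2(FPKM + 1) above 2 were changed. In liver HP against ND, 83% of genes changed by 1 (log2) were called (100% at 2), among 10481 genes. Most of the 37 genes lie below that level in liver, so this share does not describe them. In fat HP against ND the share was 37% (92% at 2) over 7 libraries, among 12843 genes, and 0% (0% at 2) over 9, among 14230. The fit of the real data over 9 called 298 genes higher, so the simulation does not match the data there.

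Named were 8 fixed genes (Mki67, Top2a, Cdk1, Ccna2, Ccnb1, Pcna, Mcm2, Rrm2), up to 8 members per direction with the largest difference among those called in each comparison, up to 4 genes per direction of the other lists, the CDK inhibitors and the D cyclins; further members and marker genes were named after their values were seen. Promoters are those of the first 6 such members with a RefSeq entry, by the difference over 7 libraries. In GENCODE, 10 of the 37 genes overlap another protein-coding gene: Ccna2, Cdc20, Cdca8, Foxm1, Kif20a, Mcm7, Nusap1, Prc1, Tk1 and Ube2c. The alternatives were another pseudocount, no filter, rescaling, quantile normalization, the replicate block, the compared groups alone, other library sets, leaving out each library and, added after seeing the data, a block of liver and fat libraries with the same group and number.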

Additional observations from a re-analysis of the deposited data

Results flagged for a closer look

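The response in fat differed from that in liver, by the limma test of the difference itself over 16 libraries, for the named genes given here. For HP against ND the difference in fat exceeded that in liver by 2.55 for Tk1, 1.88 for Mcm5, 1.8 for Ccna2, 1.78 for Mcm6, 1.62 for Mki67, 1.52 for Rrm2, 1.41 for Tpx2 and 1.35 for Mcm3, on the log2(FPKM + 1) scale. For HP against HR it exceeded that in liver by 2.24 for Tk1, 1.45 for Rrm2, 1.25 for Top2a, 1.22 for Mcm5, 1.11 for Mcm6, 1.09 for Rrm1, 1.04 for Ccna2 and 1.04 for Kif11. The 2 sets of values share the HP libraries. Afmid, which overlaps Tk1 on the opposite strand, had differences between the tissues of 1.46 (HP against ND) and 1.25 (HP against HR). With a pseudocount of 0.1 FPKM, Mki67 and Tpx2 in the HP against ND set, and Top2a, Mcm5, Mcm6, Ccna2 and Kif11 in the HP against HR set, did not pass.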

How the results depend on the processing

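The values here are numbers of the 37 genes called. Without the filter on low values the counts were 0 in liver HR against ND, 0 in liver HP against HR, 3 in fat HP against ND over 9 libraries, and over 7 libraries 0 in HR against ND and 3 in HP against HR. Rescaling to the same sum of FPKM gave 3 in liver HP against ND, 0 in liver HR against ND and 7 in fat HP against HR over 7; it moved the median difference of all genes from -0.02 to -0.2 in liver HP against ND, from -0.03 to -0.19 in liver HP against HR, from 0.09 to 0.36 in fat HP against ND and 0.14 to 0.4 in HR against ND over 9, from 0.02 to 0.24 and 0.05 to 0.18 in the tissue differences of HP against ND and HP against HR, and from 0.93 to 1.38 in fat against liver (0.1 with quantile normalization). Quantile normalization gave 0 in fat HP against ND over 9, 2 in fat HR against ND over 7, and 1, lower in fat, in the tissue difference of HR against ND. The 2 compared groups alone gave 0 in liver HR against ND, 0 in fat HR against ND and 31 in fat HP against HR over 7. In the tissue difference a pseudocount of 0.1 FPKM gave 8 for HP against ND and 4 for HP against HR, all 18 libraries 7 and 1, and 14 libraries (also without fat ND library 3 and HP library 1) 29, 7 for HR against ND, and 19. Over 5 fat libraries the counts were 34, 8 and 28. The cause was not tested.

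Replicate numbers are shared between the groups. Correlations of the deviations of same-numbered libraries ran from -0.843 to 0.625 in fat and from -0.348 to 0.428 in liver, over 9 pairs each. Those of libraries with other numbers ran from -0.796 to 0.865 in fat and from -0.274 to 0.322 in liver, over 18 pairs each. The fat values include the libraries with testis transcripts. These ranges do not settle whether the numbers pair the groups within a tissue, and the groups were taken as unpaired. With the replicate block the counts were 0 in liver HR against ND, 0 in fat HP against ND over 9, 0 in HR against ND and 0 in HP against HR over 7, and 17 in HP against ND over 7. Across tissues, the liver and fat libraries of the same group and number had correlations from -0.158 to 0.272 over 7 pairs, 1 of them over 0.1, and libraries of the same group with other numbers from -0.272 to 0.262 over 14, so these numbers were not taken to pair the tissues. A replicate block across tissues, with liver and fat of the same group and number as 1 block, was added after seeing the data. The tissue difference then had 14 genes for HP against ND, 0 for HR against ND and 0 for HP against HR by limma (7 and 15 at an unadjusted p under 0.05), and fat against liver had 35.

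Leaving out each library in turn gave 2 to 5 in liver HP against ND, 0 to 1 in HR against ND and 0 to 3 in HP against HR; over 9 fat libraries 0 to 7 in HP against ND and 0 in the other comparisons; over 7, 15 to 35, 0 to 7 in HR against ND and 0 to 30 in HP against HR; and in the tissue differences 17 to 30, 0 to 9 and 3 to 21, and 35 to 36 in fat against liver. The difference of Ccnb1 over 9 libraries ran from -0.16 (without ND library 2) to 1.53 (without ND library 1), and that of Ckap2l turned to -0.02 in the tissue difference of HP against HR with all 18 libraries.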
